A study of Homo sapiens with 18 samples.

Results

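The ZNF genes of human chromosome 19, which encode proteins with C2H2 zinc fingers, were examined in LNCaP cells given 1 of 5 compounds or vehicle. The set was chosen by name and place alone: every gene of the deposited table on chromosome 19 whose symbol is ZNF followed by digits. It held 241 of the 20145 genes in the table, and 226 of them had enough reads to be tested. A C2H2 zinc finger is a short fold held by a zinc ion that reads bases in the DNA groove, and proteins of this family carry many fingers in a row. Most of the chromosome 19 proteins also carry a KRAB domain, which binds the corepressor TRIM28 and through it the histone methyltransferase SETDB1 and heterochromatin proteins. Many of them bind transposable elements. The genes lie in clusters that arose by tandem duplication, so neighbours are often close copies of each other.

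LNCaP is a human prostate adenocarcinoma line with luminal traits. Cells grew in RPMI medium with serum for 72 h. The control group got DMSO, the vehicle, and the others got 1 µM of 2-77, 0.2 µM of ACBI, 2 µM of BD98, 10 µM of P-16 or 10 µM of the antiandrogen enzalutamide (ENZA). Each of the 6 groups had 3 libraries of messenger RNA. What P-16, BD98, ACBI and 2-77 act on is not given in the labels, and the series title concerns inhibitors of the bromodomain of BRD7, a chromatin remodelling subunit. Doses differed between compounds, so a contrast between 2 compounds compares each at its own dose. Nothing in the labels says that the 3 libraries of a group came from separate cultures, and the p-values measure only the spread between these libraries.

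The 18 libraries held 16835113 to 36975052 counts. ACBI replicate 3 stood apart, with 8.6% of its counts on ribosomal RNA genes against 0.639% to 2.09% in the others. All 9 luminal markers were present. Their summed level was 10030 to 10050 CPM (counts scaled to library size by TMM factors) with DMSO and 4836 to 7661 CPM in the 15 treated libraries. Of the 4 basal markers 2 were in the table, with sums of 0 to 2.153 CPM, and the 3 measured immune markers summed to 4.17 to 7.221 CPM, nearly all CD68, with PTPRC at 0.05425 CPM or less. The 3 measured fibroblast markers summed to 11.51 to 18.49 CPM, nearly all COL1A1. The 4 measured neuroendocrine markers summed to 42.43 to 44.91 CPM with DMSO and 55.64 to 118 CPM in treated libraries, mostly ENO2, with CHGA at 0.1657 CPM or less. The part of these marker shifts in the ZNF results was not tested.

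Promoter sequences are shown first because members of 1 cluster had a shared layout just before the start site. They come from RefSeq on GRCh38.p14, which lists 209 of the 241 genes, and each is the 160 bases before the listed start, printed 5′ to 3′ on the strand of the gene. Capitals mark every match to a motif searched on both strands: CCAAT, CCGGAAGT, GCATGCGC, AAGATGGC (YY1), CTCGCGAG (ZBTB33 or BANP), CTACAATTC (ZNF143), CACGTG (E-box) and TGACGTCA (CRE). Those found here are CCAAT (the box bound by NF-Y), CCGGAAGT (an ETS factor motif, which on the other strand reads ACTTCCGG) and GCATGCGC (an NRF1 motif, found on both strands with overlap in ZNF540). The first 3 genes lie in the cluster around ZNF91, ZNF419 was lower with each compound, and ZNF540 was among the leading rises with ACBI and BD98.
ZNF85: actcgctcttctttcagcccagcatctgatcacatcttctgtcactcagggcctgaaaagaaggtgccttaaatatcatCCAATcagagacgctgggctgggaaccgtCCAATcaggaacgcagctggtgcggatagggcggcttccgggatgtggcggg
ZNF724: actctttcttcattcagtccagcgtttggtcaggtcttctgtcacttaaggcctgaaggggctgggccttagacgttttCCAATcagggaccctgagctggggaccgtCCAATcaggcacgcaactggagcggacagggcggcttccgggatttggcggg
ZNF726: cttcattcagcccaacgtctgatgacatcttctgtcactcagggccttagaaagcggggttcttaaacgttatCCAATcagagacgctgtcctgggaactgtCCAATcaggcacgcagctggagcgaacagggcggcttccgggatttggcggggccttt
ZNF419: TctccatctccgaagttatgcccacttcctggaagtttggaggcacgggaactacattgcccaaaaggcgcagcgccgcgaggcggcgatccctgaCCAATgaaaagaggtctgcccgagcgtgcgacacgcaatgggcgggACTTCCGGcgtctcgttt
ZNF540: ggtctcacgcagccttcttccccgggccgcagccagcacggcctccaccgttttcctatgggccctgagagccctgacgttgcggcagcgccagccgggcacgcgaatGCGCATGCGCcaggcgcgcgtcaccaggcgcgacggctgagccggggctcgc
The stretches are chr19:20923091-20923250 (plus strand), chr19:23250395-23250554 (minus strand), chr19:23914726-23914885 (plus strand), chr19:57487590-57487749 (plus strand) and chr19:37551214-37551373 (plus strand), in that order. The single capital at the start of the ZNF419 stretch is the last base of a CCAAT that begins 164 bases before its start.

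ZNF85, ZNF724 and ZNF726 each hold 2 CCAAT boxes whose starts are 29 bases apart. The longest run of identical bases was 27 between ZNF724 and ZNF726, 23 between ZNF85 and ZNF726 and 17 between ZNF85 and ZNF724. Across the ZNF91 cluster, all 28 listed promoters held CCAAT and 15 of them (53.6%) held such a pair. Over the whole set 15 of 209 (7.18%) held the pair, all of them in that cluster, and 60 of 27305 promoters in the whole RefSeq table (0.22%) did. CCAAT was in 52.6% of the 209 promoters of the set, against 36.5% of the 14652 promoters of genes in the deposited table. The ETS motif was in 40 of the 209 (19.1%), against 6.85% of all, 5.79% of the other chromosome 19 genes and 15.3% of ZNF genes on other chromosomes. The exact letters of the ETS motif were in 0 of 28 promoters of the ZNF91 cluster. They were in 24 of 52 (46.2%) of the cluster around ZNF274 near the end of the long arm. There CCAAT was in 31 of 52 (59.6%). Near matches to the ETS motif were not counted. ZNF85, ZNF724 and ZNF726 each hold gcttccgg, which differs from ACTTCCGG in its first base only. The count of 0 therefore does not show that the ZNF91 cluster lacks similar sites. A match is a description of letters, and no binding was measured here.

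The encoded proteins were read from GENCODE release 29 coding sequences for 239 of the genes. They held a median of 12 fingers (quartiles 9 and 15, highest 36). A strict letter pattern for the KRAB A box matched 163 of 239 (68.2%), and a shorter core of it, added after the counts by cluster were seen, matched 180 (75.3%). In the cluster from ZNF575 to ZNF296 the strict pattern matched 2 of 24 proteins and the core 19 of 24. Transcripts were mostly distinct: a median of 2.46% of their 50-base windows also occurred in another gene. For 8 genes over 50% did, with ZNF177 highest at 86.8%, and reads of these genes may be split between copies in ways the deposited counts do not show. ZNF177 also overlaps the listed readthrough gene ZNF559-ZNF177 on its own strand, ZNF540 overlaps ZNF571-AS1 and ZNF8 overlaps ZNF8-ERVK3-1, and whether the counting used strand is not stated.

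With DMSO, the level of single members ran from 0 to 162 CPM, with a median of 13.7 CPM over the 241 genes. Of these, 81 were at 20 CPM or more and 19 under 1 CPM. Per kilobase of exon, the highest were ZNF358 (60.9 CPM per kb) and ZNF146 (39 CPM per kb), and the median of 224 tested genes was 2.79 CPM per kb. The 15 genes not tested reached at most 0.561 CPM in any library. They include ZNF536, a neural repressor, with 0 to 0.134 CPM, and ZNF541, a germ cell protein, with 0 to 0.244 CPM. The other 13 were ZNF69, ZNF90, ZNF98, ZNF99, ZNF114, ZNF257, ZNF439, ZNF486, ZNF534, ZNF560, ZNF723, ZNF729 and ZNF835. A count of 3 equals 0.0811 to 0.178 CPM in these libraries, so lower levels were not measurable.

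The summed level of the 241 genes differed between groups. It was 4606.9, 4788.5 and 4563 CPM in the 3 DMSO libraries. With P-16 it was 4344.7, 4254.5 and 4301.2 CPM, below every other library. With BD98 it was 4888.5, 4946.9 and 4838.6 CPM, above every other library. The 2-77, ACBI and ENZA libraries ran from 4481.8 to 4716.6 CPM and overlapped those of DMSO. As a share of all counts, without TMM scaling, the set held 0.4188% to 0.4311% with P-16, 0.4528% to 0.4776% with DMSO and 0.5001% to 0.5157% with BD98, so both orders held on that scale too. With 3 libraries against 3, an exact permutation test cannot go below p = 0.10, and none was run. In bulk RNA, fewer cells that express a gene and less of its RNA per cell cannot be told apart.

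**Figure D1:**
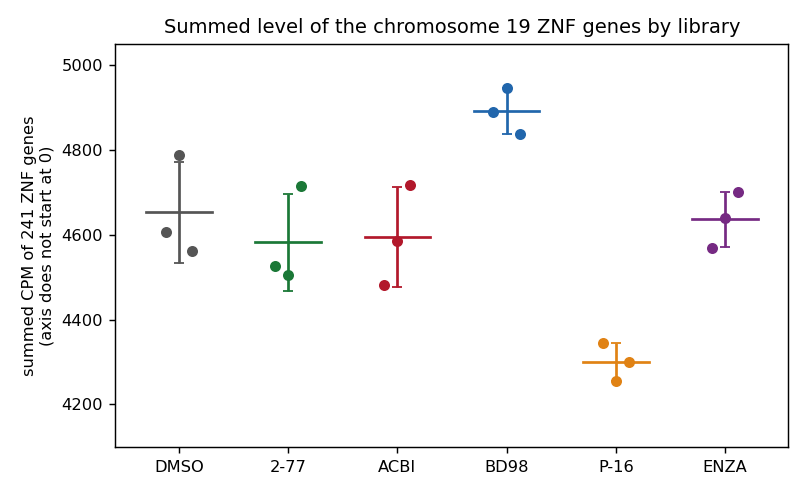
Summed level of the 241 chromosome 19 ZNF genes in each library, in TMM-scaled CPM on an axis that does not start at 0; points are libraries, horizontal lines group means and bars SD (n = 3). The 3 P-16 libraries sit lowest (4254.5 to 4344.7) and the 3 BD98 libraries highest (4838.6 to 4946.9).

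P-16 shifted the set to one side. Of the 226 tested genes 52 fell and 4 rose, where 11.6% of all 15422 tested genes fell and 12.4% rose. The shares in the set were 23% down and 1.77% up. The median log2 fold change of the set was -0.14, against 0 for all genes. ZNF genes on other chromosomes were called in both directions (15 higher, 17 lower of 210) and the other 855 chromosome 19 genes mostly higher (98 against 43). No test of the difference between these shares was run. The changes were small: the log2 fold changes of all 226 genes ran from -0.74 to 0.47. The count of 56 calls was smaller whenever 1 library was left out, at 30 to 52. Without DMSO replicate 2 it was 30 (27 lower), without P-16 replicate 2 it was 32 (28 lower) and without P-16 replicate 3 it was 35 (33 lower). Leaving out 1 library lowered the count of members in every contrast with DMSO. The shares of all genes in these fits are not given here, so the drop cannot be read as particular to the set.

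Genes are named here and below in order of log2 fold change, given with its SE, among those that passed the test, reached a mean of 2 CPM in the higher group and had no overlap between libraries of the groups. By this rule the 5 leading falls with P-16 were of ZNF135 (-0.64 ± 0.22), ZNF85 (-0.62 ± 0.11), ZNF850 (-0.43 ± 0.12), ZNF552 (-0.42 ± 0.08) and ZNF714 (-0.42 ± 0.08). ZNF85 was at 12.5, 12.3 and 10.8 CPM with DMSO and at 8.06, 8.27 and 6.53 CPM with P-16. ZNF714 was at 50.5, 59.1 and 51 CPM with DMSO and at 39.8, 39.3 and 41 CPM with P-16. For both genes every treated library was below every control. The 4 rises were of ZNF160 (0.24 ± 0.07), ZNF358 (0.21 ± 0.05), ZNF28 (0.20 ± 0.06) and ZNF428 (0.18 ± 0.07). ZNF358, the most abundant member per kilobase, went from 120 to 130 CPM with DMSO to 139 to 151 CPM with P-16. The edgeR adjusted p of these 9 genes ran from 7.85e-05 to 0.0384. The call of ZNF135 was lost without DMSO replicate 1 (adjusted p = 0.156), DMSO replicate 3 (0.0632), P-16 replicate 2 (0.0801) or P-16 replicate 3 (0.101). That of ZNF28 was lost without DMSO replicate 3 (0.0769) or P-16 replicate 3 (0.0541). That of ZNF428 was lost without DMSO replicate 1 (0.199), DMSO replicate 2 (0.0675) or P-16 replicate 3 (0.226), and with library totals (0.068).

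The falls with P-16 lay in several clusters, in unequal shares. In the ZNF274 cluster 18 of 56 tested genes fell and 0 rose, in the ZNF91 cluster 6 of 30 fell and 0 rose, and in the cluster from ZNF565 to ZNF573 8 of 25 fell and 0 rose. In the cluster from ZNF175 to ZNF331 9 of 38 fell and 2 rose, and in the one from ZNF653 to ZNF791 4 of 23 fell and 0 rose. In the cluster from ZNF575 to ZNF296 only 1 of 24 fell and 1 rose, and none of the 5 genes from ZNF554 to ZNF77 was called. By level, 28 of 116 members at 5 to 20 CPM fell (24.1%, against 12.2% of all genes at that level), as did 22 of 80 at 20 CPM or more (27.5%, against 14.3%). Under 5 CPM 2 of 30 fell (6.67%), near the 5.28% of all genes at that level. Of members with the strict KRAB pattern 41 of 151 fell and 2 rose, and of those without it 11 of 73 fell and 2 rose. With the shorter core the counts were 42 of 168 and 10 of 56. The level bands were chosen after the data were seen, and no test of the classes was run.

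BD98 shifted the set the other way. Of the 226 genes 75 rose and 30 fell, where 24.5% of all tested genes rose and 24.5% fell. The shares in the set were 33.2% and 13.3%, and its median log2 fold change was 0.1 against 0 for all genes. ZNF genes on other chromosomes had a similar split, 64 higher and 28 lower of 210. With library totals in place of TMM factors the split was wider, 93 higher and 16 lower. The TMM factors were 1.034 to 1.048 with BD98 and 0.9926 to 0.9986 with DMSO. Leaving them out therefore raises the BD98 levels of all genes, and the wider split is not particular to the set. In the cluster from ZNF175 to ZNF331, 20 of 38 tested genes rose and 2 fell, and in the cluster from ZNF575 to ZNF296, 10 of 24 rose and 0 fell. The ZNF91 cluster had 5 higher and 4 lower of 30.

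The leading rises with BD98 were of ZNF540 (0.89 ± 0.22), ZNF491 (0.85 ± 0.17), ZNF221 (0.77 ± 0.26), ZNF443 (0.76 ± 0.12) and ZNF8 (0.58 ± 0.07). ZNF8 was at 17, 16.8 and 15 CPM with DMSO and at 23.6, 24.8 and 24.2 CPM with BD98. ZNF443 was at 5.01, 6.73 and 5.3 CPM and at 9.44, 9.8 and 9.71 CPM. In both the groups did not overlap. The leading falls were of ZNF135 (-0.91 ± 0.22), ZNF419 (-0.63 ± 0.07), ZNF460 (-0.62 ± 0.19), ZNF773 (-0.56 ± 0.09) and ZNF726 (-0.51 ± 0.10). ZNF135 was at 4.42, 3.03 and 3.61 CPM with DMSO and at 1.63, 2.56 and 1.77 CPM with BD98. The edgeR adjusted p of the 10 ran from 4.56e-08 to 0.0163. ZNF221 lost its call without DMSO replicate 1 (adjusted p = 0.0789) or BD98 replicate 2 (0.0719), and ZNF460 without DMSO replicate 1 (0.0575) or BD98 replicate 2 (0.0514).

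**Figure D2:**
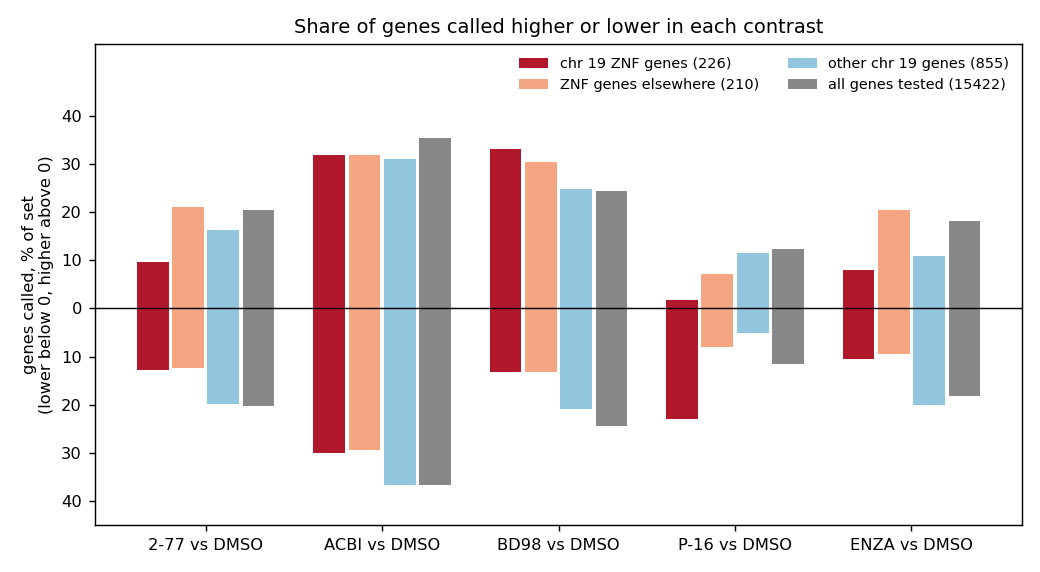
Share of genes called higher (bars above 0) or lower (bars below 0) against DMSO, in percent of each set, at an edgeR adjusted p under 0.05; colours are the chromosome 19 ZNF genes, ZNF genes elsewhere, other chromosome 19 genes and all tested genes, with their numbers. With P-16 the ZNF genes reach 23% lower and 1.77% higher, and with BD98 33.2% higher and 13.3% lower.

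ACBI changed more members than any other compound, in both directions. Of the 226 genes 72 rose and 68 fell, where 35.4% of all tested genes rose and 36.6% fell. The shares in the set, 31.9% and 30.1%, were below those of all genes, and the median log2 fold change was 0.03. The clusters differed in their counts. In the ZNF91 cluster, chr19:19668153-24129967 in the deposited hg38 positions, 15 of 30 tested genes fell and 5 rose, with a median of -0.28. In the cluster from ZNF653 to ZNF791, chr19:11483429-12633821, 12 of 23 rose and 1 fell, with a median of 0.31. This cluster holds 5 of the 8 genes that share over 50% of their windows, and its counts without them were not taken. In the cluster from ZNF575 to ZNF296, 12 of 24 rose and 2 fell, with a median of 0.34. In the ZNF274 cluster 23 of 56 fell and 13 rose. No test compared the clusters.

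The leading falls with ACBI were of ZNF492 (-2.49 ± 0.31), ZNF135 (-1.53 ± 0.23), ZNF724 (-1.46 ± 0.16), ZNF66 (-1.29 ± 0.16) and ZNF763 (-1.20 ± 0.26), and 3 of the 5 (ZNF492, ZNF724 and ZNF66) lie in the ZNF91 cluster. ZNF492 was at 2.33, 2.43 and 2.23 CPM with DMSO and at 0.622, 0.217 and 0.373 CPM with ACBI, a fitted 5.61-fold fall from few reads (40 to 50 counts per control library and 5 to 16 per ACBI library). ZNF66 was at 7.68, 11.7 and 9.36 CPM and at 4, 4.05 and 3.77 CPM. The groups did not overlap in either gene. ZNF724 and ZNF763 share 48.3% and 49.1% of their windows with other genes. The leading rises were of ZNF575 (1.95 ± 0.27), ZNF540 (1.84 ± 0.21), ZNF491 (1.00 ± 0.17), ZNF177 (0.97 ± 0.37) and ZNF442 (0.96 ± 0.13). ZNF575 was at 1.22, 0.91 and 1.69 CPM with DMSO and at 5.56, 5.22 and 4.18 CPM with ACBI. ZNF540 was at 1.86, 2.02 and 1.52 CPM and at 5.71, 6.61 and 6.96 CPM. The edgeR adjusted p of the 10 ran from 1.89e-09 to 0.0297. Only ZNF177 of these lost its call when 1 library was left out, DMSO replicate 1 (adjusted p = 0.0936) or ACBI replicate 2 (0.11).

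Of the 8 members that share over 50% of their windows, 7 rose and 1 fell with ACBI, where 35.4% of all tested genes rose and 36.6% fell. With BD98 5 rose and 0 fell (24.5% and 24.5% of all), and with ENZA 3 rose and 0 fell (18.2% and 18.1%). With 2-77 1 rose and 0 fell (20.5% and 20.2%), and with P-16 0 rose and 1 fell (12.4% and 11.6%). Without these 8, and without 2 tested genes that had no GENCODE transcript, 63 rose and 67 fell of 216 with ACBI. These counts were added after the data were seen.

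2-77 changed few members. Of the 226 genes 22 rose and 29 fell, 9.73% and 12.8%, where 20.5% of all tested genes rose and 20.2% fell. All 8 calls among the 30 tested genes of the ZNF91 cluster were falls, and its median was -0.15. In the ZNF274 cluster 13 of 56 fell and 4 rose. The leading falls were of ZNF492 (-0.73 ± 0.25), ZNF85 (-0.57 ± 0.11), ZNF726 (-0.56 ± 0.10), ZNF419 (-0.46 ± 0.07) and ZNF93 (-0.42 ± 0.10), a repressor of L1 retrotransposons. ZNF93 was at 11.9, 9.61 and 10.7 CPM with DMSO and at 8.79, 7.77 and 7.35 CPM with 2-77, without overlap. The leading rises were of ZNF540 (0.67 ± 0.22), ZNF611 (0.41 ± 0.10), ZNF8 (0.36 ± 0.07), ZNF792 (0.33 ± 0.11) and ZNF28 (0.31 ± 0.06). The edgeR adjusted p of the 10 ran from 8.64e-06 to 0.0212. ZNF492 lost its call without DMSO replicate 2 (adjusted p = 0.0579) or 2-77 replicate 2 (0.06), and ZNF540 without DMSO replicate 3 (0.0877) or 2-77 replicate 3 (0.0761). ZNF792 lost it without DMSO replicate 1 (0.0545), DMSO replicate 2 (0.089), 2-77 replicate 1 (0.0955) or 2-77 replicate 2 (0.0758).

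ENZA also changed few members. Of the 226 genes 18 rose and 24 fell, 7.96% and 10.6%, where 18.2% of all tested genes rose and 18.1% fell. ZNF554 led the falls (-0.68 ± 0.08, edgeR adjusted p = 1.16e-07), from 16.1, 18.4 and 18.2 CPM with DMSO to 10, 11.7 and 11 CPM. The next falls were of ZNF85 (-0.55 ± 0.11), ZNF726 (-0.55 ± 0.10), ZNF296 (-0.51 ± 0.15) and ZNF724 (-0.50 ± 0.14). The leading rises were of ZNF177 (1.06 ± 0.37), ZNF221 (0.98 ± 0.26), ZNF230 (0.76 ± 0.18), ZNF284 (0.45 ± 0.15) and ZNF225 (0.44 ± 0.16). The last 4 lie within chr19:43533188-45076478, where 4 of 24 tested genes rose and 1 fell. That share of rises was near the 18.2% of all tested genes. ZNF230 was at 2.04, 2.02 and 2.01 CPM with DMSO and at 3.15, 3.42 and 3.71 CPM with ENZA, and no treated library overlapped a control. Several of these calls did not hold in every fit. ZNF177 lost its call without DMSO replicate 1 (adjusted p = 0.0967), ENZA replicate 2 (0.145) or ENZA replicate 3 (0.0813), without a filter (0.0554) and with only the 2 groups (0.116). ZNF225 lost it without DMSO replicate 2 (0.0655), DMSO replicate 3 (0.188), ENZA replicate 1 (0.122) or ENZA replicate 3 (0.0838). ZNF284 lost it without DMSO replicate 1 (0.122), DMSO replicate 3 (0.0844) or ENZA replicate 1 (0.0936). ZNF296 (0.062) and ZNF724 (0.0651) lost it without DMSO replicate 2.

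**Figure D3:**
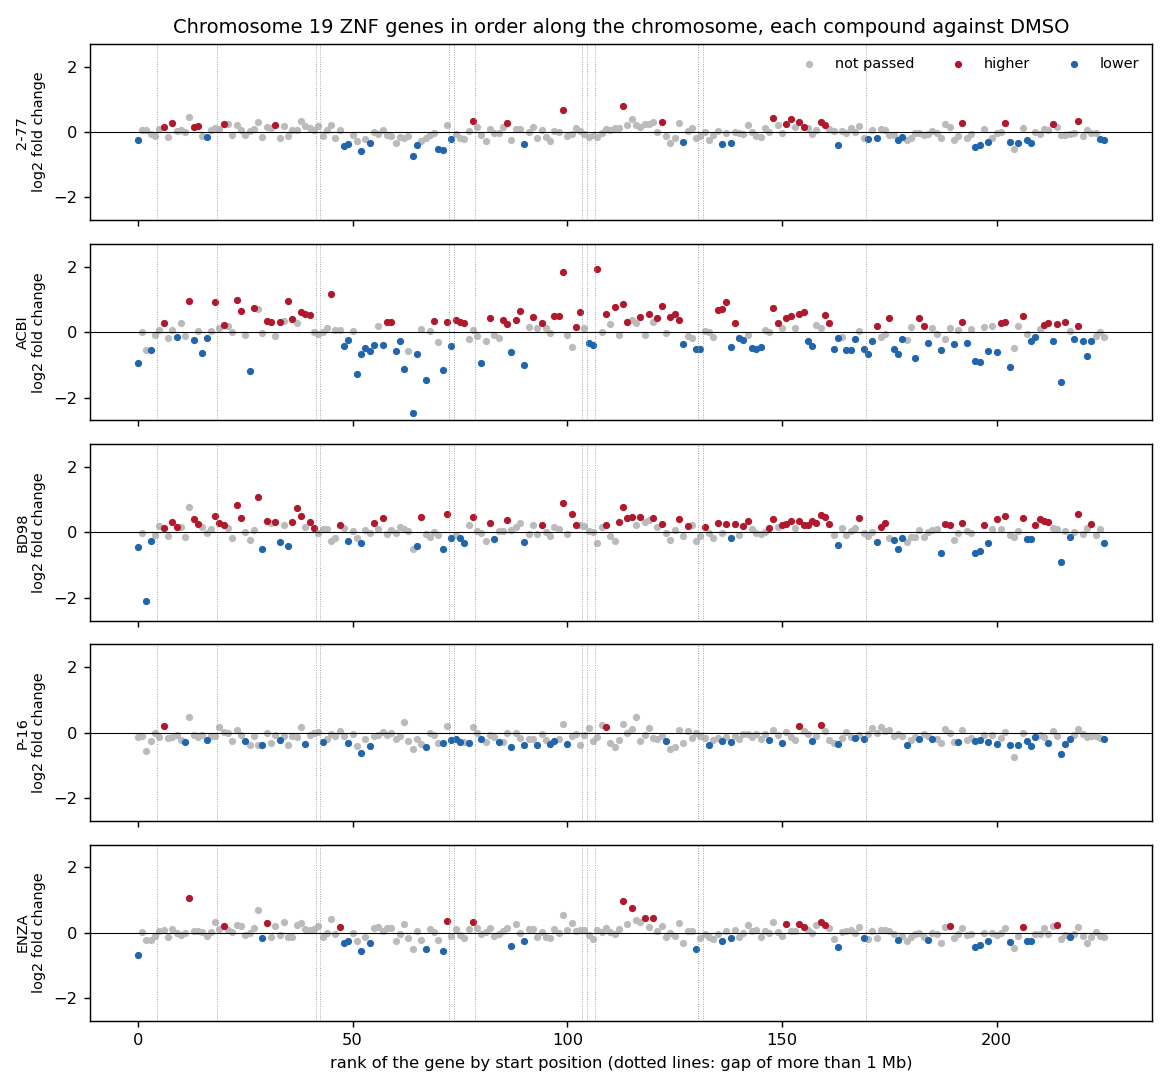
Log2 fold change against DMSO of the 226 tested ZNF genes, ranked by start along chromosome 19, 1 panel per compound; red points were called higher, blue lower and grey not, and dotted lines mark gaps of more than 1 Mb. Among ACBI points, those of the ZNF91 cluster (15 lower, 5 higher of 30) lie mostly below 0, and the P-16 calls lie below 0 except for 4.

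The contrasts with DMSO share their 3 control libraries, so a member low or high in those libraries moves in all of them. Of the 226 tested members 10 were called lower in all 5 contrasts and 1, ZNF28, was called higher in all 5. How many of all tested genes were so called was not counted, so these numbers cannot be called many or few. The values of 6 of these members are given side by side. ZNF726 had 19.3, 19.7 and 16.1 CPM with DMSO, and its group means were 12.4 with 2-77, 8.22 with ACBI, 13 with BD98, 14.8 with P-16 and 12.4 with ENZA. ZNF419 had 29.5, 34.9 and 30.5 CPM with DMSO, 22.5 to 24.2 with 2-77, 16.2 to 18.8 with ACBI, 20.1 to 21 with BD98, 25 to 27 with P-16 and 21.8 to 25.4 with ENZA. No treated library of ZNF419 reached a control. Its neighbour ZNF773 had 20.1 to 23.9 CPM with DMSO, 15.7 to 17.7 with 2-77, 10.1 to 13.1 with ACBI, 13.5 to 15.8 with BD98, 18.7 to 19.3 with P-16 and 16.3 to 18.7 with ENZA. ZNF85 had 10.8 to 12.5 CPM with DMSO and 6.53 to 9.91 CPM in the 15 treated libraries. ZNF552 had 24.5 to 25.1 CPM with DMSO and 17.5 to 22.5 CPM in the treated ones. ZNF28 was the reverse, with 29.9 to 32.2 CPM with DMSO and 34.9 to 48.9 CPM in the treated ones. Some of these calls were lost when 1 library was left out or 1 setting was changed. With P-16, ZNF419 lost its call without DMSO replicate 2 (edgeR adjusted p = 0.0903), and ZNF726 without DMSO replicate 1 (0.0736), DMSO replicate 2 (0.101), P-16 replicate 1 (0.126) or P-16 replicate 2 (0.0593). ZNF773 with P-16 lost it without DMSO replicate 1 or 2 or any P-16 library (0.0826 to 0.19), with a replicate block (0.0583), with library totals (0.0555), without a filter (0.0557) and with DESeq2 (0.0599). With BD98, ZNF85 lost it without DMSO replicate 1 (0.0547) or DMSO replicate 2 (0.0505), and ZNF552 without DMSO replicate 1 or 2 or BD98 replicate 1 or 2 (0.0539 to 0.0567) and with library totals (0.122). ZNF552 also lost it with ENZA without ENZA replicate 2 (0.0687).

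**Figure D4:**
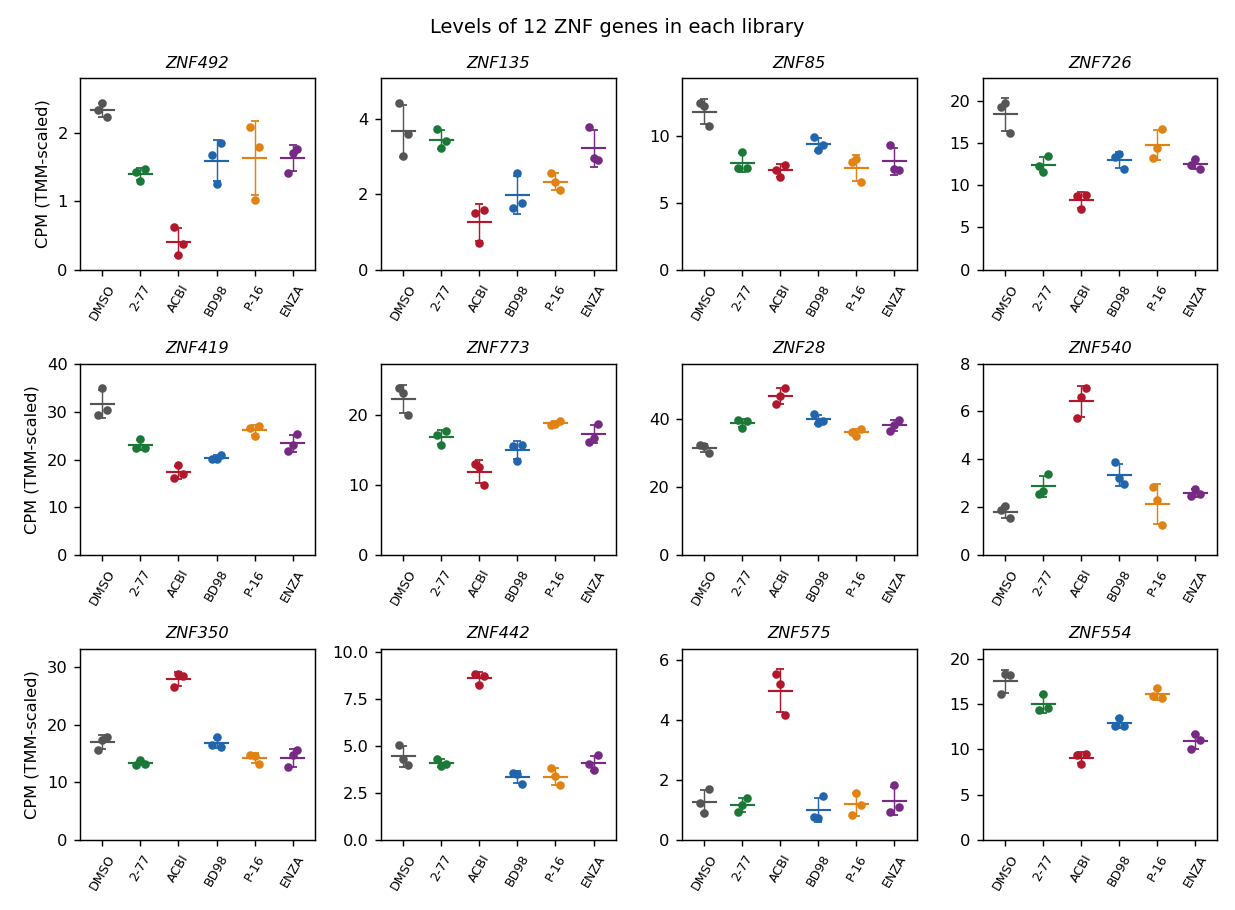
Level of 12 chromosome 19 ZNF genes in each library, in TMM-scaled CPM on axes that start at 0; points are libraries, horizontal lines group means and bars SD (n = 3). ZNF419, ZNF726 and ZNF85 are highest with DMSO, ZNF28 is lowest with DMSO, and ZNF350, ZNF442 and ZNF575 are highest with ACBI.

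Members with better known roles differed. ZNF91, which represses SVA retrotransposons, was at 53.3 to 58.2 CPM with DMSO and 48.3 to 61.4 CPM in treated libraries, and passed the test in none of the 5 contrasts. ZNF274, which brings SETDB1 to ZNF genes, was at 48 to 49.3 CPM with DMSO and fell with BD98 (-0.14 ± 0.05), P-16 (-0.18 ± 0.05) and ENZA (-0.14 ± 0.05). Library totals ended the BD98 and ENZA calls of ZNF274 (edgeR adjusted p = 0.281 and 0.0725), and the lack of a filter ended the latter (0.0588). Its P-16 call was lost without P-16 replicate 3 (0.0567). Leaving out single libraries also ended its BD98 call (DMSO replicate 1 or 2, BD98 replicate 1 or 3, 0.0532 to 0.117) and its ENZA call (any DMSO library, ENZA replicate 1 or 3, 0.0567 to 0.104). ZNF417 and ZNF587, a pair of near copies that repress HERV-K elements, rose with BD98 (0.34 ± 0.07 and 0.23 ± 0.05). ZNF587 fell with ACBI (-0.15 ± 0.05) and P-16 (-0.14 ± 0.05), and ZNF417 rose with ACBI (0.22 ± 0.07). Neither shares over 50% of its windows with other genes, but reads may still be split between this pair in ways the counts do not show. The ZNF587 call with P-16 was lost without DMSO replicate 2 or 3 or P-16 replicate 2 or 3 (0.0761 to 0.124), and the ZNF417 call with ACBI without DMSO replicate 2 (0.0511). ZNF331, an imprinted gene, fell with ACBI (-0.51 ± 0.07), from 40 to 42.7 CPM to 26.3 to 31.4 CPM. Its smaller falls with P-16 (-0.20 ± 0.07) and ENZA (-0.18 ± 0.07) were lost without any DMSO library (0.0615 to 0.185), without P-16 replicate 1 (0.14) or 2 (0.124), with DESeq2 for P-16 (0.0509), and for ENZA without ENZA replicate 1 (0.0975) or 2 (0.293), with library totals (0.0689) and without a filter (0.0518). ZNF808, which binds MER11 elements, rose with ACBI (0.30 ± 0.12), a call lost without DMSO replicate 1 (0.12), ACBI replicate 2 (0.0644) or ACBI replicate 3 (0.0692) and with library totals (0.0538). ZNF420, a regulator of p53, rose with ACBI (0.48 ± 0.10). ZNF132, ZNF154 and ZNF649 passed the test in no contrast with DMSO.

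ZNF350, also known as ZBRK1, a repressor that works with BRCA1, went in opposite directions. It was at 15.7, 17.4 and 18 CPM with DMSO, at 26.6, 28.9 and 28.5 CPM with ACBI and at 13.1, 13.9 and 13.2 CPM with 2-77. All ACBI libraries were above and all 2-77 libraries below the controls. It rose with ACBI (0.71 ± 0.08, edgeR adjusted p = 2.37e-09) and fell with 2-77 (-0.35 ± 0.08, adjusted p = 0.00096). It also fell with P-16 (-0.26 ± 0.08, adjusted p = 0.0219) and ENZA (-0.25 ± 0.08, adjusted p = 0.0167). The P-16 call was lost without DMSO replicate 2 (0.073), DMSO replicate 3 (0.108) or P-16 replicate 3 (0.104), and the ENZA call without DMSO replicate 2 (0.0543), DMSO replicate 3 (0.0963) or ENZA replicate 1 (0.122).

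Compounds were then contrasted directly, each at its own dose. 2-77 and ENZA differed in few members. Of the 226 genes 2 were higher and 2 lower with 2-77, where 2.94% of all tested genes were higher and 2.6% lower. ZNF554 was 1.37-fold higher with 2-77 (0.45 ± 0.08, edgeR adjusted p = 0.000537) and ZNF611 1.28-fold higher (0.36 ± 0.10, adjusted p = 0.0187). ZNF429 was lower (-0.27 ± 0.06, adjusted p = 0.00704), as was ZNF91 (-0.19 ± 0.06, adjusted p = 0.0476). ZNF429 lost its call without 2-77 replicate 1 (0.065) or 2-77 replicate 2 (0.0522). Without 2-77 replicate 1 the whole count was 1, without 2-77 replicate 2 or ENZA replicate 1 it was 2, and without 2-77 replicate 3 it was 9. ZNF611 and ZNF91 are named here because the count is small. A count this low does not show that the compounds act alike.

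Against P-16, 2-77 had 41 members higher and 4 lower, where 10.6% of all tested genes were higher and 11.8% lower, with a median log2 fold change of 0.15. This count was 21 without 2-77 replicate 3 and 23 without P-16 replicate 2 or P-16 replicate 3. Against BD98, 2-77 had 5 members higher and 50 lower, where 20.7% were higher and 21.3% lower, with a median of -0.1, and with library totals 4 were higher and 75 lower. Against ACBI, 2-77 had 63 higher and 64 lower, where 36.8% were higher and 33.4% lower, and with library totals 73 were higher and 52 lower. TMM factors were 1.001 to 1.009 with 2-77, 1.034 to 1.048 with BD98 and 0.9233 to 0.9927 with ACBI. Library totals therefore move all genes in these contrasts, down against BD98 and up against ACBI, and not the set alone. In these contrasts ZNF135 was higher with 2-77 than with ACBI (1.44 ± 0.23) and BD98 (0.83 ± 0.22), and ZNF575 was lower than with ACBI (-2.11 ± 0.27). ZNF730 was lower than with BD98 (-0.72 ± 0.18), and ZNF93 was lower than with P-16 (-0.31 ± 0.10). ZNF404 was higher than with P-16 (0.56 ± 0.19, edgeR adjusted p = 0.0386). The ZNF404 call was lost without any 1 of the 6 libraries (0.0567 to 0.148), without a filter (0.0535), with only the 2 groups (0.056) and with DESeq2 (0.0681). The ZNF93 call was lost without 2-77 replicate 2 or 3 or any P-16 library (0.051 to 0.12).

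ACBI differed from P-16 in 105 members higher and 49 lower, where 35% of all tested genes were higher and 36.5% lower, with a median of 0.16. From BD98 it differed in 51 higher and 83 lower, where 33.4% were higher and 36.2% lower. With library totals that split became 29 and 105, and the median of all genes moved from -0.02 to -0.13. From ENZA it differed in 65 higher and 61 lower, where 33.3% were higher and 36.7% lower. ZNF575 was higher with ACBI in each of these contrasts, by 2.26 ± 0.27 against BD98, 2.08 ± 0.27 against P-16 and 1.88 ± 0.26 against ENZA. ZNF724 was lower by all 3, at -1.39 ± 0.16 against BD98, -1.01 ± 0.16 against P-16 and -0.96 ± 0.16 against ENZA. ZNF135 was lower than with ENZA (-1.33 ± 0.23).

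The corepressor that KRAB proteins bind, and its partners, were followed in a list of 24 genes, all tested. With ACBI 11 of the 24 fell and 7 rose, where 36.6% of all tested genes fell and 35.4% rose. TRIM28 was at 481, 457 and 498 CPM with DMSO and at 326, 317 and 272 CPM with ACBI, a fall of -0.65 ± 0.05 (log2). In the other 4 contrasts TRIM28 lay between -0.03 and 0.05 and did not pass the test. SETDB1, the methyltransferase TRIM28 recruits, fell with ACBI (-0.32 ± 0.05), as did the heterochromatin proteins CBX5 (-0.46 ± 0.04) and CBX3 (-0.51 ± 0.10). UHRF1, which guides the maintenance DNA methyltransferase DNMT1, went from 43.2, 44.1 and 42 CPM to 1.59, 2.26 and 2.69 CPM (-4.31 ± 0.10), and DNMT1 fell by 1.16 on the log2 scale. The histone H3K9 methyltransferases SUV39H1 (-1.34 ± 0.10) and SUV39H2 (-0.97 ± 0.09) fell too. EHMT1, of the same kind, went the other way, from 109 to 113 CPM with DMSO to 148 to 151 CPM with ACBI. EHMT2 overlapped, at 103 to 113 and 105 to 127 CPM. CHD3 (0.85 ± 0.04), a NuRD helicase, and HDAC1 (0.57 ± 0.03) rose. Their relatives were lower with ACBI: CHD4 went from 246 to 252 CPM to 179 to 197 CPM, and HDAC2 from 175 to 179 CPM to 136 to 143 CPM.

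With BD98 13 of the 24 rose and 0 fell, where 24.5% of all tested genes rose and 24.5% fell, and CHD4 (0.51 ± 0.04) and CHD3 (0.40 ± 0.04) led the rises. With 2-77 8 rose and 2 fell, where 20.5% of all rose and 20.2% fell. With ENZA 8 rose and 3 fell, where 18.2% rose and 18.1% fell. With P-16 3 rose and 0 fell, where 12.4% rose and 11.6% fell, so the share of rises was near that of all genes. The 3 genes called with P-16 were CBX1 (0.27 ± 0.04), CHD4 (0.19 ± 0.04) and MORC3 (0.23 ± 0.08). CBX1, a heterochromatin protein, was at 117 to 120 CPM with DMSO and 130 to 158 CPM in the treated libraries, with no overlap. Whether these genes bear on the ZNF levels was not tested.

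**Figure D5:**
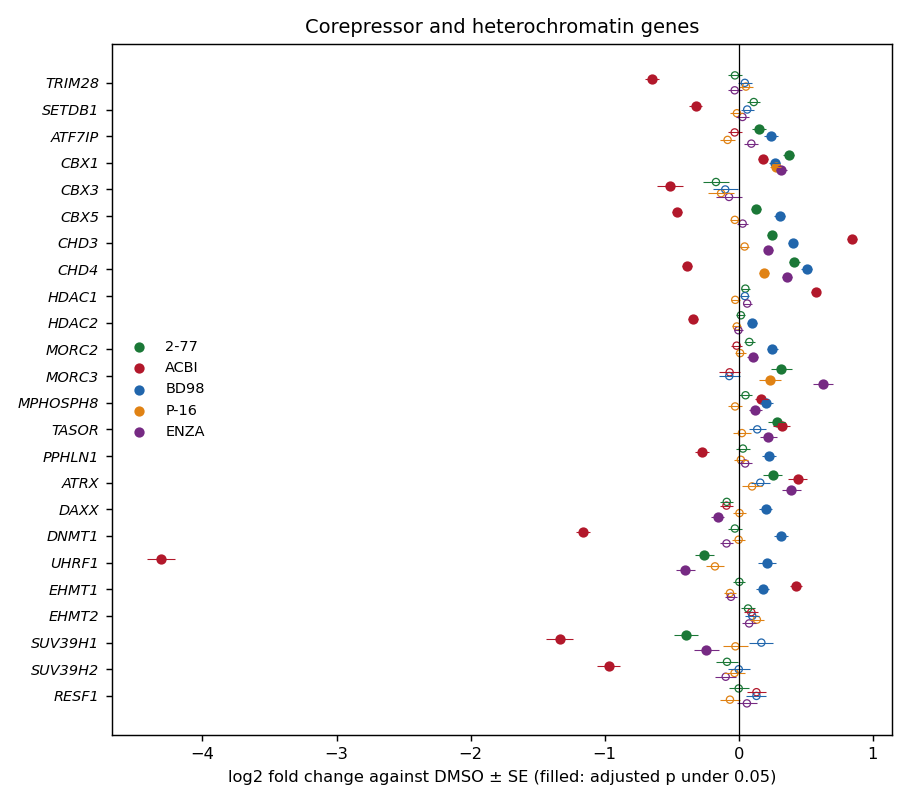
Log2 fold change against DMSO of 24 corepressor and heterochromatin genes, with SE as bars; colours are compounds, and filled points had an edgeR adjusted p under 0.05. With ACBI, UHRF1 (-4.31), SUV39H1 (-1.34) and DNMT1 (-1.16) lie farthest left and CHD3 (0.85) farthest right.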

How the data were processed

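Polyadenylated RNA of 18 LNCaP libraries was measured, 3 per group. The submitters' processing notes name Partek, STAR, DESeq2 and hg38, and give no versions. The program that counted reads, its annotation, filters and use of strand are not given in the sources used here. The deposited table holds expected counts, that is estimated reads per gene and library that are not scaled to depth. Its columns SCO277 and PB_16 were taken as 2-77 and P-16, and 0 columns were left unused. A gene's end was taken as the base before the listed stop, and 114 of 240 members found in RefSeq then had both ends equal.

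The rounded counts went into R 4.3.3 and edgeR 4.0.16. The filterByExpr rule left 15422 genes. TMM factors and a robust quasi-likelihood fit of all 18 libraries (12 residual degrees of freedom) gave two-sided F tests for 5 contrasts with DMSO and 7 between compounds. P-values were adjusted by Benjamini-Hochberg over all tested genes, with a threshold of 0.05. Log2 fold changes are first group minus second, and the SE is the size of the log2 fold change divided by the square root of F. Reads carry no molecular identifiers.

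The set, lists and rules were chosen with earlier results of these data known. Named members were the 5 leading rises and 5 leading falls of each DMSO contrast, if past the threshold, above 2 CPM in the higher group's mean and without overlap of libraries, 1 each way per direct contrast, a panel of 14 members and the corepressor list. Clusters were split at gaps of more than 1 Mb between starts. Proteins were translated from GENCODE release 29 in place of the RefSeq proteins planned, and no protein alignment was run. Libraries were treated as unpaired, since the sample titles give replicate numbers and name no pairs. Over all tested genes 1 of 45 pairs of same-number libraries had residuals correlated above 0.1, which cannot show that the design was unpaired. The script was tested on simulated data. Alternatives were DESeq2 1.42.0, RLE factors, library totals, no filter, 1 CPM in 3 libraries, only the 2 groups compared, a replicate block, no ribosomal RNA genes, each library left out, a gap of 0.5 Mb and fingers with a spacer of 12 only. Figures used matplotlib 3.10.9 in Python 3.11.15.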

Additional observations from a re-analysis of the deposited data

Results flagged for a closer look

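Of the 226 tested members, 25 were called higher with 1 or more compounds and lower with others against DMSO. How many of all tested genes did so was not counted, so 25 cannot be called many or few. The 3 described here are those among the genes named by the rule or the panel whose direct contrast of the 2 compounds also passed the edgeR test, and direct contrasts of the others are not described. ZNF350 differed by -1.07 ± 0.08 (log2, SE) between 2-77 and ACBI (adjusted p = 3.79e-13), with every 2-77 library below and every ACBI library above the controls. It differed by 0.97 ± 0.08 between ACBI and P-16 (adjusted p = 3.95e-12) and by 0.96 ± 0.08 between ACBI and ENZA (adjusted p = 3.37e-12). ZNF442 differed by 1.37 ± 0.13 between ACBI and BD98 (adjusted p = 2.82e-10). It rose by 0.96 with ACBI, and its fall of -0.41 with BD98 lost its call without DMSO replicate 1 (adjusted p = 0.126) or BD98 replicate 3 (0.123) and with library totals (0.0591). ZNF587 differed by -0.39 ± 0.05 between the same compounds (adjusted p = 1.24e-08), at -0.15 with ACBI and 0.23 with BD98. The doses differed, and the contrasts with DMSO share their controls. Groups of 3 libraries are too small for a test of single outlying libraries.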

How the results depend on the processing

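Counts of changed ZNF genes kept within 1.5 times the reported count under DESeq2, RLE factors, library totals, no filter, a filter of 1 CPM in 3 libraries, only the 2 groups compared, no ribosomal RNA genes and a replicate block. With the replicate block the counts were 50 (2-77), 139 (ACBI), 102 (BD98), 53 (P-16) and 41 (ENZA) against DMSO, and 122, 51, 43 and 3 for 2-77 against ACBI, BD98, P-16 and ENZA, and 134, 155 and 125 for ACBI against BD98, P-16 and ENZA. The block ended 2 calls of named genes, ZNF773 with P-16 (adjusted p = 0.0583) and ZNF358 with BD98 (0.0545). With 1 library left out, the counts ran from 30 to 52 for P-16 against DMSO, 37 to 48 for 2-77, 132 to 139 for ACBI, 76 to 92 for BD98 and 31 to 35 for ENZA. They ran from 115 to 122 for 2-77 against ACBI, 39 to 53 against BD98, 21 to 36 against P-16 and 1 to 9 against ENZA, and from 120 to 129, 136 to 148 and 111 to 123 for ACBI against BD98, P-16 and ENZA. The cause of these shifts was not tested. Library totals gave 2-77 against ENZA 2 higher and 1 lower. Of 3976 values of named genes under these settings, 2128 were of genes called in the reported fit, and 173 of these lost their call. Among the values not called there 47 gained a call, and 0 of all values changed sign with a call. A gap of 0.5 Mb left the counts of the ZNF91 cluster and its ZNF653 to ZNF791 counterpart as they were, and the median number of fingers was 12 with both spacers. Whether same-number libraries were paired is not stated in the sample titles. Among 6767 genes above 5 in mean log2 CPM, 12 of 45 same-number pairs had residuals correlated above 0.1, at a median of -0.062. Such correlations cannot show how the libraries were made. Levels under 0.178 CPM lie below 3 counts in at least 1 library.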
